A study of Rattus norvegicus with 16 samples.

Results

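The Slc25 family holds the carriers of the mitochondrial inner membrane, and its genes were followed in the left ventricle (LV) of rats whose hearts were overloaded with volume by an aortocaval fistula (ACF), a surgical shunt between the abdominal aorta and the inferior vena cava. Members were all genes whose annotated symbol begins with Slc25a on probe sets with 1 symbol, which gave 40 of the 14218 genes measured, from 58 probe sets. The choice of members used no measured value other than brightness: of several probe sets of a gene, the brightest on average across the 16 arrays stood for it. A further pair of probe sets, each listed under the symbol Slc25a51 with more than 1 gene ID, was left out by this rule.

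All rats were adult male Sprague-Dawley rats without any genetic change, and each array held LV RNA of 1 sample, with 4 arrays per group. The groups were control, ACF 8 weeks, ACF 16 weeks and ACF 24 weeks, and the study's times make 8 weeks the compensated hypertrophy (CH) phase and 16 weeks the heart failure (HF) phase. The sample titles call the control arrays baseline, whereas the methods compare with sham-operated rats. If these controls were taken before surgery, age and surgery cannot be told apart from ACF in any comparison with control. Controls of 1 age, even sham-operated, could match at most 1 of the 3 times, and at the others age cannot be told apart from ACF either. In the 24-week group the arrays are described as 24, 25, 26 and 27 weeks. All 3 comparisons with control share the same 4 control arrays.

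Carriers of this family are built on a shared fold of repeated helix pairs and exchange small molecules between cytosol and matrix. They bring ADP and phosphate to the ATP synthase and export ATP, pass reducing equivalents through the malate-aspartate shuttle, and import acylcarnitines, the form in which long-chain fatty acids reach the matrix. Others move amino acids, cofactors, nucleotides and iron, and a few sit in other membranes, such as the peroxisomal carrier Slc25a17.

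Values are log2 intensities minus the median of their array, since the medians of the deposited arrays lay at 2 levels. In 9 arrays, among them all controls, the median was 6.13 to 6.17. In the other 7 arrays it was 5.92 to 5.96, and these were replicate 2 at 8 weeks, replicates 3 and 4 at 16 weeks and all arrays at 24 weeks. A gene passed at an adjusted p under 0.05 in limma, which fits a linear model to each gene and moderates its variance with that of the others, with the Benjamini-Hochberg adjustment over all 14218 genes. Ventricular cardiomyocyte markers fitted the tissue label: all 11 measured lay at or above the 99.1th percentile of genes by mean intensity. None of them passed in a comparison with control. The mean level of the 5 atrial cardiomyocyte markers measured varied widely between arrays of a group. It ran from 0.69 to 3.54 in control, and in time order from 1.56 to 4.43, from 1.8 to 3.08 and from 1.77 to 4.76. Of the 5, 1 rose at 16 weeks, beside 5.83% of all genes, and the part of atrial tissue was not tested.

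Single carriers of amino acids, coenzyme A, acylcarnitine, dicarboxylates and ATP-Mg passed against control, and no carrier of ADP/ATP or phosphate passed at any time. At 16 weeks, 2 of 40 members rose (Slc25a24 and Slc25a17) and 6 fell (Slc25a15, Slc25a42, Slc25a29, Slc25a23, Slc25a10 and Slc25a20). Of all genes, 5.83% rose and 3.26% fell in that comparison. At 24 weeks 2 members fell (Slc25a15 and Slc25a42) and 0 rose, beside 0.295% and 0.612% of all genes. At 8 weeks 0 members passed in either direction in limma, beside 0.0492% of all genes higher and 0.00703% lower, and 4 members, all lower, had an unadjusted p under 0.05, as did 7.82% of all genes. In time order the median log2 change of the 40 members was 0.00, -0.03 and -0.04, beside 0.00 for all genes each time. Of the 40 members, 20 had a difference below 0 at 8 weeks, 26 at 16 weeks and 25 at 24 weeks. The shares of all genes below 0 were 50.9%, 50.4% and 49.9%.

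**Figure D1:**
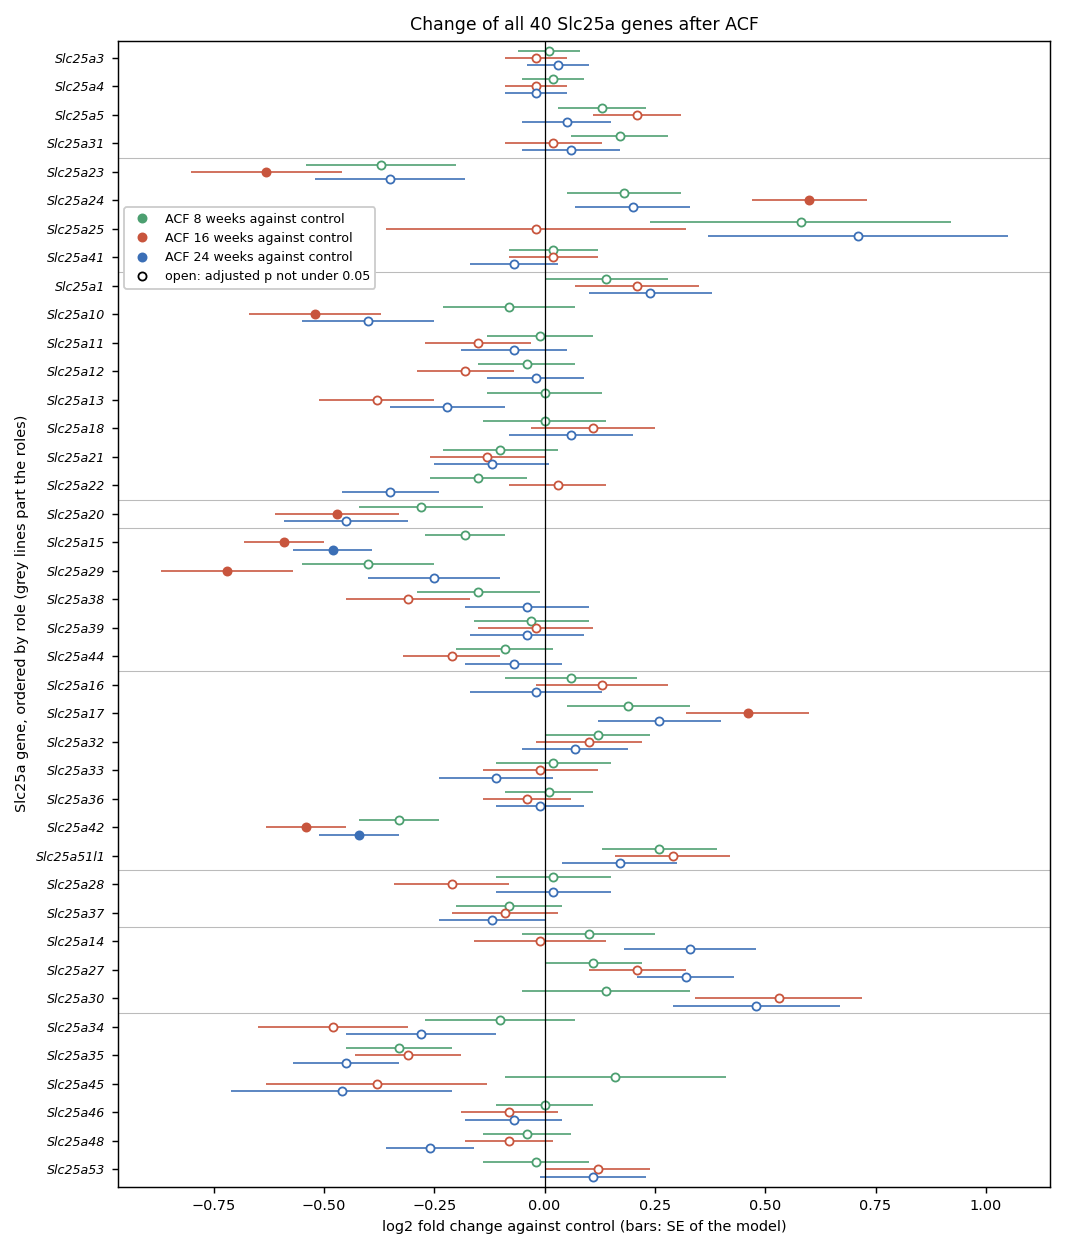
Log2 fold change of each of the 40 Slc25a genes at 8, 16 and 24 weeks after ACF against control, with the standard error (SE) of the model as bars, 4 arrays per group, and genes ordered by role. Filled points passed (adjusted p under 0.05): 8 points at 16 weeks, from -0.72 for Slc25a29 to 0.60 for Slc25a24, and 2 points at 24 weeks.

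These counts depended on the centring, while more members fell than rose on both scales at 16 and 24 weeks. With the values as deposited, the median change of all genes was -0.06, -0.12 and -0.21 in time order. On that scale 0 members rose and 10 fell at 16 weeks, 0 rose and 11 fell at 24 weeks, and over all genes 359 rose and 1006 fell at 16 weeks, against 829 and 463 after centring. At 24 weeks 81 of all genes rose and 1594 fell on that scale, against 87 and 42 after centring. The 6 members that fell at 16 weeks passed on both scales, whereas Slc25a24 (adjusted p = 0.0639) and Slc25a17 (adjusted p = 0.137) did not pass without centring in limma. Given the shift, a member that fell after centring could only fall further without it, so its sign there is no separate support.

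Counts of members whose 4 arrays all lay outside the control range need no model and are given as a description. At 8 weeks 2 members lay wholly below control (2.73% of all genes did) and 1 wholly above (3.43% of all genes). At 16 weeks 5 lay below (6.32% of all genes) and 2 above (10.1% of all genes). At 24 weeks 6 lay below (4.46% of all genes) and 0 above (4.82% of all genes). The 6 at 24 weeks were Slc25a15, Slc25a42, Slc25a23, Slc25a22, Slc25a35 and Slc25a48. Slc25a42 and Slc25a23 lay below control at all 3 times. The share of all genes that did so was not counted, and the 3 comparisons share the same control arrays.

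Upstream sequences were read for the members, taken from RefSeq for the assembly GRCr8, which held 35 promoters of 34 members. Each window ends at the base before the annotated start of the gene, runs 5′ to 3′ on the strand of the gene, and is 250 bases long. The windows were searched on both strands for 5 motifs: the nuclear receptor half-site, AGGTCA, its extended form of the ERR type, TNAAGGTCA, which contains it, its direct repeat with 1 base between (the PPAR type), an ETS motif of the GABP type, CCGGAAGT, and the CCAAT box. Slc25a42, Slc25a29 and Slc25a20 are shown because the first lay below control at every time, the second fell most, and the third holds the only ETS motif among these 35 promoters. Capitals mark the CCAAT box on either strand in Slc25a42 and Slc25a29, and the ETS motif in Slc25a20.
Slc25a42, chr16:19247724-19247973, plus strand: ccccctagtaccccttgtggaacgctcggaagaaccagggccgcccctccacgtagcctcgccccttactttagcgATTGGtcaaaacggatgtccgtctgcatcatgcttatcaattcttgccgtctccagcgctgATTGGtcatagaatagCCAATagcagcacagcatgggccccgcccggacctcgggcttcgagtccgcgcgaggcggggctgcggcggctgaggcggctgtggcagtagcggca
Slc25a29, chr6:133517198-133517447, minus strand: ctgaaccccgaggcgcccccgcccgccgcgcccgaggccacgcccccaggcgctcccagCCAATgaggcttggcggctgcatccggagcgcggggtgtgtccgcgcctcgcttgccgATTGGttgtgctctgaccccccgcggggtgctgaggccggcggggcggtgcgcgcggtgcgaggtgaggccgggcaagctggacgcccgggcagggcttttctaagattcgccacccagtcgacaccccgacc
Slc25a20, chr8:118243323-118243572, plus strand: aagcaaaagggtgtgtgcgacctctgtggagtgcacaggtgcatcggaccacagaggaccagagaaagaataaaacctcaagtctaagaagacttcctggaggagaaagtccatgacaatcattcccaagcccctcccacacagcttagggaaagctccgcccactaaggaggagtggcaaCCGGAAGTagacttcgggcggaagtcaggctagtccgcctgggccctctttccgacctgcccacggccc

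The CCAAT box was found in 19 of 35 member promoters and in 34% of 33469 rat promoters of the same length. Of the 6 members that fell at 16 weeks, 5 held it (Slc25a42 with 3 matches, Slc25a29 with 2, and Slc25a15, Slc25a10 and Slc25a23 with 1 each) and Slc25a20 did not. Of the 2 that rose, Slc25a17 held 2 matches and Slc25a24 none. The ETS motif stood 69 to 62 bases before the start of Slc25a20 and in 3.1% of all promoters. The half-site was found in 5 member promoters, none of them of a gene that passed, and in 14.1% of all. The extended form, found in 1.04% of all promoters, and the direct repeat, in 0.0508%, were in none of the 35. A match here describes letters only, and no match says only that these letters are not in this window.

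The ADP/ATP and phosphate carriers stood first by role, and 0 of 4 passed at any time. Slc25a4, the ADP/ATP carrier of heart and muscle, read 8.10, 8.10, 7.97 and 8.02 in control, 8.06, 8.06, 8.07 and 8.10 at 8 weeks, 8.00, 8.00, 7.98 and 8.11 at 16 weeks, and 8.06, 7.94, 8.08 and 8.04 at 24 weeks. The groups overlapped at every time, and the log2 change was 0.02, -0.02 and -0.02 in time order, each with an SE of 0.07. Its probe set averaged 14.09 on the deposited scale, and the brightest probe set of each array read 14.42 to 14.69, so it lay near the top of the measured range.

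Slc25a3, the phosphate carrier that feeds the ATP synthase, read 7.75, 7.75, 7.66 and 7.69 in control, 7.67, 7.78, 7.67 and 7.75 at 8 weeks, 7.59, 7.72, 7.69 and 7.76 at 16 weeks, and 7.72, 7.74, 7.74 and 7.77 at 24 weeks. Its change stayed between -0.02 and 0.03 with an SE of 0.07. It too lay high in the measured range, at a mean of 13.77 on the deposited scale. Slc25a5, the ADP/ATP carrier found in many tissues, read 6.16, 6.0, 5.86 and 5.99 in control, 6.19, 6.06, 6.14 and 6.14 at 8 weeks, 6.37, 6.27, 6.20 and 6.01 at 16 weeks, and 5.99, 6.23, 6.0 and 5.98 at 24 weeks. Replicates 1 to 3 at 16 weeks lay above every control array and replicate 4 did not, and the change of 0.21 (SE 0.10, adjusted p = 0.177 in limma) did not pass. The change of Slc25a4 minus that of Slc25a5 was -0.24 ± 0.20 (SD, n = 4) at 16 weeks, with arrays from -0.42 to 0.05, which overlapped the control arrays at -0.11 to 0.07. That difference was -0.11 ± 0.06 at 8 weeks and -0.07 ± 0.18 at 24 weeks. Slc25a31, the ADP/ATP carrier of testis, was dim and differed by 0.17 at most.

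**Figure D2:**
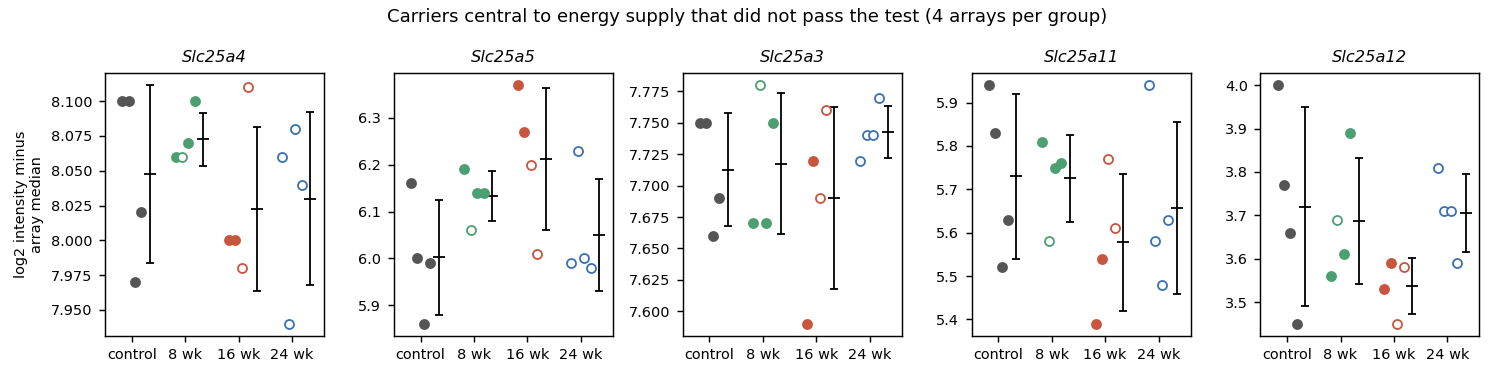
Log2 intensity minus the array median of Slc25a4, Slc25a5, Slc25a3, Slc25a11 and Slc25a12 on each array by group, with filled points for arrays of the higher median level, open points for those of the lower level, and the mean and SD of 4 arrays in black. Vertical scales differ between panels, and in every panel the ACF groups overlap control, with Slc25a4 between 7.94 and 8.11 on all 16 arrays.

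In the malate-aspartate shuttle, which carries cytosolic reducing equivalents into the matrix, the mean differences at 16 weeks were below 0 and none passed. Slc25a11, the oxoglutarate/malate carrier, read 5.94, 5.83, 5.52 and 5.63 in control, 5.81, 5.58, 5.75 and 5.76 at 8 weeks, 5.39, 5.54, 5.77 and 5.61 at 16 weeks, and 5.94, 5.58, 5.48 and 5.63 at 24 weeks. The groups overlapped, with -0.15 (SE 0.12, adjusted p = 0.471 in limma) at 16 weeks. Slc25a12, the aspartate/glutamate carrier that is the main form in heart, read 4.00, 3.77, 3.66 and 3.45 in control, 3.56, 3.69, 3.61 and 3.89 at 8 weeks, 3.53, 3.59, 3.45 and 3.58 at 16 weeks, and 3.81, 3.71, 3.71 and 3.59 at 24 weeks. The 16-week arrays lay at the low end of the control range, with -0.18 (SE 0.11, adjusted p = 0.329 in limma).

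Slc25a13, the other aspartate/glutamate carrier, known as citrin, differed by -0.38 (SE 0.13, adjusted p = 0.0862 in limma) at 16 weeks and its second probe set by -0.36, and neither passed. The brighter one passed lower at 16 weeks with the values as deposited, with cyclic loess, with the level as a block and in the higher-level arrays alone. The change of Slc25a12 minus that of Slc25a13 was 0.20 ± 0.07 (SD, n = 4) at 24 weeks, with all 4 arrays between 0.15 and 0.30, which overlapped the control arrays at -0.10 to 0.17. That difference was 0.20 ± 0.33 at 16 weeks.

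Of the 8 carriers of di- and tricarboxylates, oxoglutarate, aspartate and glutamate, 1 passed. Slc25a10, the dicarboxylate carrier that exchanges malate or succinate for phosphate, read 1.72, 1.76, 1.98 and 1.44 in control, 1.59, 1.61, 1.96 and 1.41 at 8 weeks, 1.04, 1.16, 1.43 and 1.18 at 16 weeks, and 1.45, 1.24, 1.01 and 1.59 at 24 weeks. All 16-week arrays lay below the lowest control array (replicate 3 only just), and the gene fell by 0.52 in log2 terms (SE 0.15, adjusted p = 0.0333 in limma). At 24 weeks the difference was -0.40 (adjusted p = 0.176) and the groups overlapped. Its second, dimmer probe set did not pass at 16 weeks, with -0.16 (SE 0.15, adjusted p = 0.575 over all probe sets in limma). With the mean of its probe sets the 16-week call was lost, at -0.34. The call depended on single arrays: it held in 2 of 8 fits that each left out 1 of the 8 arrays compared, and was lost without control replicate 1, 2 or 3 or 16-week replicate 1, 2 or 4. The other members of the role ran from -0.38 to 0.21 at 16 weeks. Slc25a22, a glutamate carrier, lay wholly below control at 24 weeks with -0.35 (SE 0.11, adjusted p = 0.122 in limma) and at 0.03 at 16 weeks.

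Slc25a20, the carnitine/acylcarnitine carrier through which long-chain fatty acids reach the matrix, read 4.98, 4.79, 4.90 and 4.53 in control, 4.82, 4.37, 4.40 and 4.51 at 8 weeks, 4.32, 4.26, 4.20 and 4.57 at 16 weeks, and 4.59, 3.98, 4.32 and 4.51 at 24 weeks. The 16-week arrays overlapped control only through replicate 4, which lay above the lowest control array. The gene fell at 16 weeks to 0.724 times control, a log2 change of -0.47 (SE 0.14, adjusted p = 0.0491 in limma), just inside the threshold. The difference was of like size at 24 weeks and did not pass, with -0.45 (SE 0.14, adjusted p = 0.126 in limma), and was -0.28 (adjusted p = 0.68) at 8 weeks. The 16-week call held in 2 of 8 fits with 1 array left out and was lost without control replicate 1, 2 or 3 or 16-week replicate 1, 2 or 3. With the level as a block it was lost too, at -0.45 (adjusted p = 0.0919 in limma). Adjusted over all probe sets, the gene also missed the threshold at 16 weeks (adjusted p = 0.0566 in limma).

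The 5 carriers of amino acids and related molecules all had differences below 0 at 16 weeks, and 2 of them fell. Slc25a15, which exchanges ornithine for citrulline, read 1.88, 1.99, 1.96 and 1.81 in control, 1.85, 1.48, 1.78 and 1.79 at 8 weeks, 1.17, 1.39, 1.35 and 1.38 at 16 weeks, and 1.37, 1.38, 1.55 and 1.44 at 24 weeks. At 16 and 24 weeks every array lay below every control array, while at 8 weeks only replicates 2, 3 and 4 did. The gene fell to 0.666 times control at 16 weeks, a log2 change of -0.59 (SE 0.09, adjusted p = 0.0016) and by 0.48 log2 units at 24 weeks (SE 0.09, adjusted p = 0.0251), and differed by -0.18 at 8 weeks (adjusted p = 0.688). The smallest adjusted p of the family belonged to this gene, which passed at 16 weeks in 8 of 8 fits with 1 array left out. At 24 weeks it passed in 2 of 8, the call being lost without control replicate 1, 2 or 3 or 24-week replicate 1, 2 or 3.

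Slc25a15 had 6 probe sets, more than any other member. At 16 weeks 5 of them had differences below 0, from -0.34 to -0.59. The second brightest passed with -0.47 (adjusted p = 0.0451 over all probe sets in limma) and another stood at -0.54 without passing. With the mean of its probe sets in place of the brightest, the 16-week call was lost, at -0.37 (adjusted p = 0.0568 in limma). The sixth was the dimmest, with a mean of 3.98 on the deposited scale, and differed by 0.16. Slc25a23 had a second probe set that also fell, by 0.49 (adjusted p = 0.0326), and a dimmer one at -0.26.

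**Figure D3:**
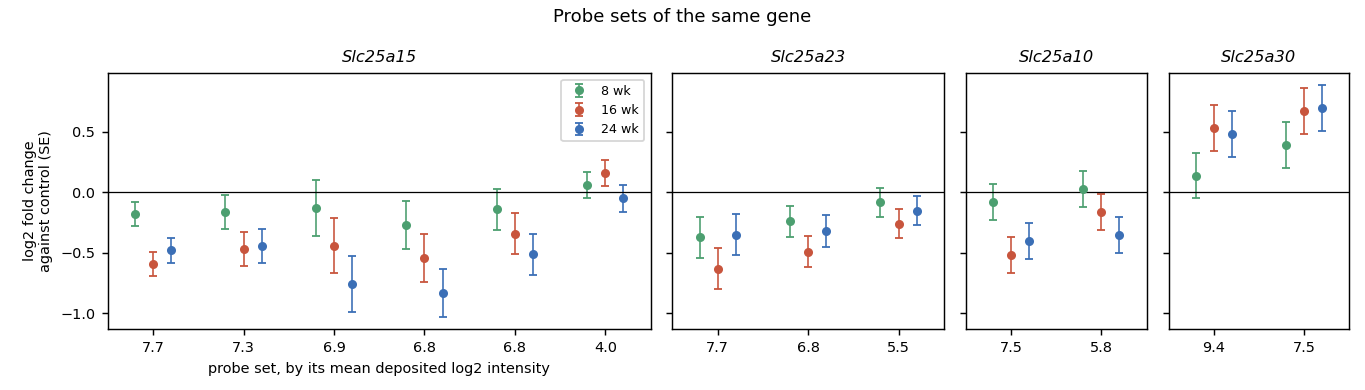
Log2 fold change against control with the SE of the model for every probe set of Slc25a15, Slc25a23, Slc25a10 and Slc25a30 at 8, 16 and 24 weeks, 4 arrays per group, ordered from bright to dim by the mean deposited log2 intensity on the horizontal axis. At 16 weeks 5 of 6 probe sets of Slc25a15 lie below 0, the probe sets of Slc25a23 lie between -0.63 and -0.26, those of Slc25a10 at -0.52 and -0.16, and those of Slc25a30 at 0.53 and 0.67.

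Slc25a29, a carrier of basic amino acids such as arginine and lysine, read 2.62, 2.31, 2.44 and 2.09 in control, 2.10, 2.11, 1.89 and 1.77 at 8 weeks, 1.44, 1.37, 1.67 and 2.08 at 16 weeks, and 2.23, 1.94, 1.95 and 2.34 at 24 weeks. The 16-week arrays all lay below control, though replicate 4 only just. It had the largest fall of the family, at -0.72, or 0.606 times control, at 16 weeks (SE 0.15, adjusted p = 0.00867 in limma), and passed in 8 of 8 fits with 1 array left out. At 24 weeks the arrays overlapped control, with -0.25 (adjusted p = 0.452), and the difference of 24 against 16 weeks was 0.47 (SE 0.15, adjusted p = 0.419 in limma), which did not pass. The other carriers of this role, for glycine (Slc25a38), glutathione (Slc25a39) and branched-chain amino acids (Slc25a44), differed by -0.31, -0.02 and -0.21 at 16 weeks without passing.

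Of the 7 carriers of cofactors and nucleotides, 1 fell and 1 rose at 16 weeks. Slc25a42, which brings coenzyme A into the matrix and whose upstream window holds 3 CCAAT boxes, read 2.45, 2.24, 2.23 and 2.32 in control, 2.01, 1.93, 1.93 and 2.05 at 8 weeks, 1.62, 1.85, 1.65 and 1.98 at 16 weeks, and 1.92, 1.81, 1.87 and 1.97 at 24 weeks. Every ACF array lay below every control array. The gene fell to 0.689 times control at 16 weeks, a log2 change of -0.54 (SE 0.09, adjusted p = 0.00242) and by 0.42 log2 units at 24 weeks (SE 0.09, adjusted p = 0.0414), and differed by -0.33 at 8 weeks (SE 0.09, adjusted p = 0.265). It passed in 8 of 8 fits with 1 array left out at 16 weeks and in 1 of 8 at 24 weeks, where only leaving out 24-week replicate 4 kept the call.

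Slc25a17, the peroxisomal carrier of coenzyme A, FAD and related cofactors, read 1.34, 1.49, 1.2 and 1.25 in control, 1.34, 1.78, 1.36 and 1.56 at 8 weeks, 2.05, 1.76, 1.70 and 1.59 at 16 weeks, and 1.44, 1.87, 1.69 and 1.33 at 24 weeks. All 16-week arrays lay above control, and it rose to 1.37 times control, a log2 change of 0.46 (SE 0.14, adjusted p = 0.0436 in limma). The call held in 2 of 8 fits with 1 array left out, being lost without control replicate 1, 3 or 4 or 16-week replicate 1, 2 or 3, and was also lost with the level as a block (0.45, adjusted p = 0.0758). Adjusted over all probe sets, the gene missed the threshold too (adjusted p = 0.0506 in limma). The remaining 5 members, among them the pyrimidine nucleotide carriers Slc25a33 and Slc25a36 and the folate and FAD carrier Slc25a32, ran from -0.04 to 0.29 at 16 weeks, the highest being Slc25a51l1 (adjusted p = 0.184 in limma). The probe sets listed under Slc25a51, the NAD carrier, differed by 0.26 (adjusted p = 0.0768 over all probe sets in limma) and 0.20 (adjusted p = 0.187).

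The ATP-Mg/phosphate carriers, which load or unload the matrix pool of adenine nucleotides under control of calcium, moved in both directions at 16 weeks. Slc25a24 read 1.52, 1.60, 1.31 and 1.60 in control, 1.60, 1.71, 1.68 and 1.76 at 8 weeks, 2.29, 2.37, 1.89 and 1.89 at 16 weeks, and 1.56, 1.86, 1.98 and 1.44 at 24 weeks. The 16-week arrays all lay above control and the 24-week arrays overlapped it. At 16 weeks it rose to 1.51 times control, a log2 change of 0.60 (SE 0.13, adjusted p = 0.0101 in limma), and passed in 8 of 8 fits with 1 array left out. The difference of 24 against 16 weeks was -0.40 (SE 0.13, adjusted p = 0.433 in limma) and did not pass.

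Slc25a23, the other member of this role that passed, read 1.93, 2.04, 1.90 and 2.02 in control, 1.46, 1.79, 1.52 and 1.63 at 8 weeks, 0.64, 1.72, 1.44 and 1.59 at 16 weeks, and 1.81, 1.54, 1.52 and 1.64 at 24 weeks. Every ACF array lay below every control array, and replicate 1 at 16 weeks lay far below the other three of its group. The gene fell to 0.647 times control at 16 weeks, a log2 change of -0.63 (SE 0.17, adjusted p = 0.029 in limma), beside -0.37 (adjusted p = 0.608) at 8 weeks and -0.35 (adjusted p = 0.326) at 24 weeks. The 16-week call held in 4 of 8 fits with 1 array left out and was lost without any 1 of the controls. Without replicate 1 at 16 weeks it still passed, and the difference was -0.39. With the 8 arrays compared alone the 16-week call was lost.

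Slc25a25, also of this role, varied widely within groups and did not pass. It read 0.73 to 1.52 in control, 0.81 to 2.31 at 8 weeks, 0.60 to 2.20 at 16 weeks and 1.45 to 2.00 at 24 weeks, and its changes were 0.58, -0.02 and 0.71 with an SE of 0.34. The change of Slc25a23 minus that of Slc25a25 was -1.06 ± 0.37 (SD, n = 4) at 24 weeks, with arrays from -1.33 to -0.52. That difference was -0.96 ± 0.68 at 8 weeks and -0.61 ± 0.83 at 16 weeks, with arrays up to 0.11 at 16 weeks. Control arrays ran from -0.37 to 0.33. Slc25a41, the calcium-independent member, stayed between -0.07 and 0.02.

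**Figure D4:**
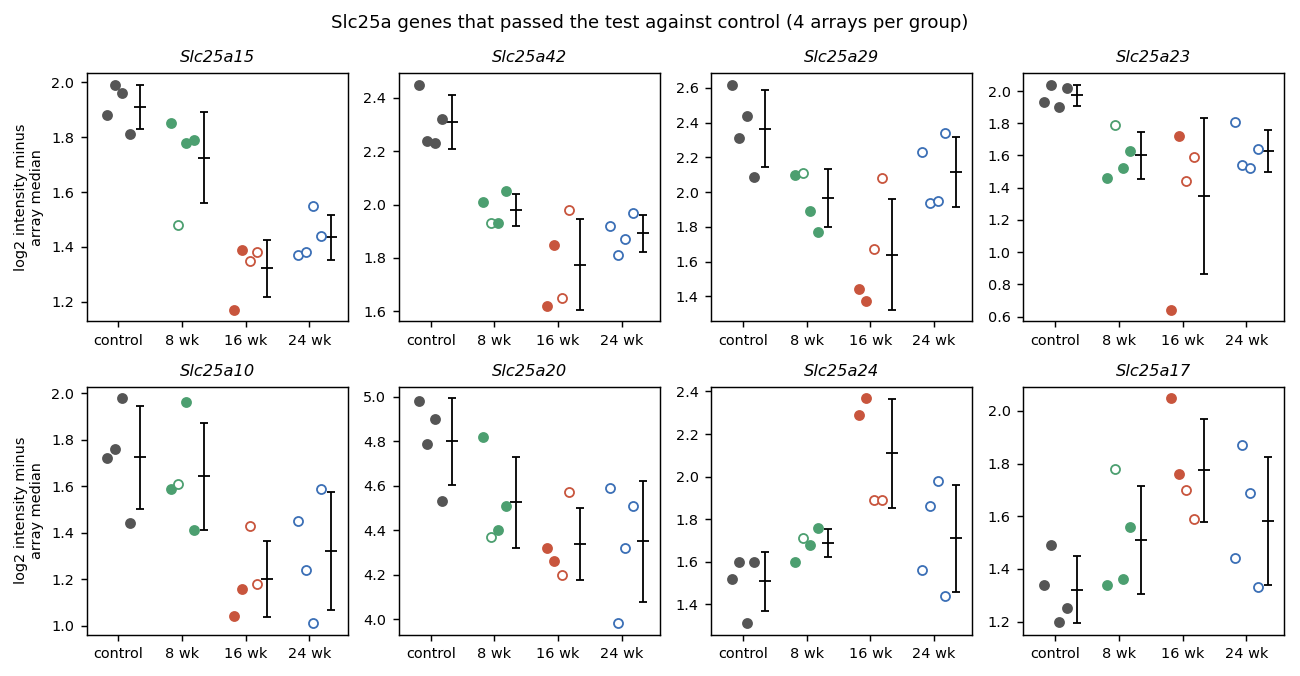
Log2 intensity minus the array median on each array for the 8 Slc25a genes that passed against control, with 4 arrays per group, filled points for arrays of the higher median level, open points for those of the lower level, and the mean and SD in black. In Slc25a42 and Slc25a23 every ACF array lies below control, in Slc25a15 every array at 16 and 24 weeks, and in Slc25a24 and Slc25a17 every array at 16 weeks lies above; vertical scales differ between panels.

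The other roles held no member that passed. Of the uncoupling-protein-like carriers, Slc25a30 differed by 0.53 (SE 0.19, adjusted p = 0.0833 in limma) at 16 weeks, and its second probe set by 0.67 (adjusted p = 0.0407 over all probe sets). Slc25a30 passed higher at 16 weeks with the replicate block, with array weights and with the mean of its probe sets. Slc25a27 and Slc25a14 of the same role differed by 0.32 and 0.33 at 24 weeks. The mitoferrins Slc25a28 and Slc25a37, which bring iron to the matrix for heme and iron-sulfur clusters, ran from -0.21 to 0.02 over the 3 times. Among 6 carriers whose substrates are less well known, Slc25a35 had the smallest adjusted p, with -0.45 (SE 0.12, adjusted p = 0.0786 in limma) at 24 weeks, where its 4 arrays lay below control, and -0.33 and -0.31 at 8 and 16 weeks. Slc25a34 differed by -0.48 (adjusted p = 0.0791) at 16 weeks, and passed lower there under the same 4 settings as Slc25a13.

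No member passed between the ACF times. The count was 0 of 40 for 16 against 8 weeks, 24 against 16 weeks and 24 against 8 weeks in limma, beside 0% of all genes in each. At an unadjusted p under 0.05 there were 9 members for 16 against 8 weeks (2 higher, 7 lower), 5 for 24 against 16 weeks (3 higher, 2 lower) and 4 for 24 against 8 weeks (0 higher, 4 lower). The share of all genes past that unadjusted threshold was 8.69%, 9% and 5.46%. For Slc25a15, 16 against 8 weeks gave -0.40 (SE 0.09, adjusted p = 0.242 in limma). Calls that were present at 16 weeks and absent at 8 or 24 weeks are therefore not shown to differ between those times.

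The array levels touched every comparison at 24 weeks, where all arrays were of the lower level and all controls of the higher. Within the 9 arrays of the higher level, 11 members passed at 16 weeks (2 higher, 9 lower), among them all 8 named above, beside 1136 of all 14218 genes higher and 708 lower. Of the 16-week group that fit held replicates 1 and 2 alone, and of the 8-week group replicates 1, 3 and 4. Replicate 1 at 16 weeks stood apart in marker levels, as given below. In that fit Slc25a15 stood at -0.63, Slc25a42 at -0.58 and Slc25a24 at 0.82 at 16 weeks, and 3 members passed for 16 against 8 weeks, Slc25a24 higher and Slc25a13 and Slc25a15 lower, beside 162 of all genes higher and 74 lower. With the level as a block, 8 members passed at 16 weeks (1 higher, 7 lower), beside 997 of all genes higher and 594 lower. In the same fit 0 members passed at 24 weeks, beside 2 of all genes higher and 0 lower, and Slc25a15 stood at -0.38 (adjusted p = 0.256) and Slc25a42 at -0.44 (adjusted p = 0.196).

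Genes around the carriers were read from lists of named genes. Among 13 enzymes on either side of the carriers, 2 fell and 0 rose at 16 weeks, with a median of -0.20. They were Crat, carnitine acetyltransferase (-0.65, SE 0.15, adjusted p = 0.0117), and Cpt2, the matrix enzyme that returns acyl groups from carnitine to coenzyme A downstream of Slc25a20 (-0.48, SE 0.14, adjusted p = 0.0391). Gpd2 of the glycerol phosphate shuttle stood at -0.47 (adjusted p = 0.0553) and Cpt1b, the muscle form of the enzyme that makes acylcarnitine, at -0.25 (adjusted p = 0.115). Of 15 tricarboxylic acid cycle enzymes, 3 fell and 0 rose, with a median of -0.20 and 15 of 15 below 0: Dlst (-0.51, adjusted p = 0.0106) and Ogdh (-0.49, adjusted p = 0.0204) of the oxoglutarate dehydrogenase complex, and Suclg2 (-0.34, adjusted p = 0.0417) of succinyl-CoA ligase. These p are from limma over all genes, of which 7164 of 14218 lay below 0, 5.83% rose and 3.26% fell at 16 weeks.

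Genes of other carriers and of the import and control of carriers were counted in the same way. Of 10 genes of the pyruvate carrier and the calcium uniporter, 1 rose at 16 weeks, Mcub, the dominant-negative subunit of the uniporter (0.96, SE 0.22, adjusted p = 0.0121), while the pyruvate carrier subunits Mpc1 and Mpc2 stood at -0.09 and -0.11. Of 7 outer membrane channels and sideroflexins, 2 rose, the serine transporter Sfxn1 (0.56, adjusted p = 0.00968) and Sfxn3 (0.51, adjusted p = 0.0331). Vdac1, Vdac2 and Vdac3, the pores through which carrier substrates cross the outer membrane, ran from -0.07 to -0.05. The 5 family members under other symbols (Ucp1, Ucp2, Ucp3, Mtch1 and Mtch2), 12 genes of the import route for carriers and 12 regulators of mitochondrial genes gave 0 calls in limma at 16 weeks, with medians of 0.11, -0.07 and -0.09. Of the regulators, Ppargc1b stood at -0.62 (adjusted p = 0.0847) and Ppargc1a at -0.29 (adjusted p = 0.145). No gene of these 7 lists passed at 8 or 24 weeks.

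Markers of some other cells also changed. All 10 macrophage markers rose at 16 weeks, 2 at 8 and 4 at 24 weeks, beside 5.83%, 0.0492% and 0.612% of all genes. Their mean level over the list ran from 1.34 to 1.66 in control, and in time order from 2.17 to 2.53, from 2.43 to 3.22 and from 1.86 to 2.49. Of 8 fibroblast markers, 4 rose at 16 weeks, with list means of 3.50 to 4.22 in control and 4.29 to 4.73 at 16 weeks. At 24 weeks 1 fibroblast marker rose. Of 6 endothelial markers, 1 rose at 16 weeks and 1 at 24 weeks. None of the 6 adipocyte or 3 red blood cell markers passed in a comparison with control. The ventricular cardiomyocyte list ran from 7.63 to 7.73 in control and from 7.24 to 7.67 at 16 weeks, with 0 of 11 markers passing in limma. The value of 7.24 was that of replicate 1 alone, the others lying at 7.56 to 7.67. That array also had the highest macrophage level, at 3.22, the lowest mean of the tricarboxylic acid cycle enzymes, at 5.88, and the lowest Slc25a23. Without it 6 members passed at 16 weeks in limma, with Slc25a24 and Slc25a30 higher and Slc25a15, Slc25a23, Slc25a29 and Slc25a42 lower. In the same fit 525 of all genes were higher and 226 lower, against 829 and 463 with all arrays. The part of that array in the results of the enzyme and marker lists was not tested. Array intensities have no true zero, so the absence of a cell type cannot be read from them, and the part of the other cells in the carriers' changes was not tested. In whole LV tissue, fewer cells of a type and less RNA per cell cannot be told apart.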

How the data were processed

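The values deposited by the authors are log2 intensities of 31099 probe sets on 16 arrays, which per the labels came from RMA, with background correction, quantile normalization and summary over probes, in the program Affymetrix Expression Console 1.2. Their probe set names belong to a different Affymetrix rat array from the one in the methods. No raw intensities were processed. Gene symbols came from the array's annotation: 20832 probe sets carry 1 symbol, 436 several and 9831 none.

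Each array was centred on its median over all probe sets. In R 4.3.3, limma 3.58.1 fitted the 4 group means over the 16 arrays together, with no filter on dim probe sets, and p was adjusted over 14218 genes by the Benjamini-Hochberg method. The functions were tested on simulated data. The number of arrays limits the precision. The labels do not name the batches of the arrays. Whether samples were processed together is not given in the sources used here.

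The members, lists and tests were chosen with earlier results of these data known. Values of every array are given for members that passed and for 6 carriers central to the heart's energy supply. Of other members, the 1 of each role with the smallest adjusted p could be named, as could up to 4 genes of each related list. The carriers Slc25a14, Slc25a22, Slc25a25, Slc25a27, Slc25a34 and Slc25a48, and others named only to account for a role, were named after their values were seen. Alternatives were other scalings, the array level or replicate number as a block, the arrays of the higher level alone, the 8 arrays compared alone, array weights, a robust variance prior with a trend, the upper 50% of genes by mean, probe sets averaged by gene or taken singly, a fold above 1.5, the methods' test and leaving out each array. The methods' test with the methods' own threshold was added after seeing the data.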

Additional observations from a re-analysis of the deposited data

Results flagged for a closer look

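Of 52 groups of 4 values checked, 2 held a value that stood apart from the rest of its group. Slc25a4 read 8.11 in replicate 4 at 16 weeks after ACF, while the other arrays of the group read 7.98 to 8.00, a gap of 0.83 of the group's range. Slc25a5 read 6.23 in replicate 2 at 24 weeks, while the others read 5.98 to 6.0, a gap of 0.911 of the range. Chance marks about 1 in 20 groups of 4 in this way. Both arrays are of the lower median level, and the part of the level was not tested.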

How the results depend on the processing

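Across the alternatives no named member changed its direction while passing. At 16 weeks 8 members passed, and 4 did with a fold above 1.5 beside the adjusted p, 4 with a fold above 1.5 and an unadjusted p, 1 with the methods' test after adjustment (Slc25a15) and 4 with the methods' test and threshold. Over all genes 829 rose and 463 fell at 16 weeks, and 482 and 213 with the fold beside the adjusted p. The fold with an unadjusted p gave 594 and 268, the methods' test 154 and 66, and its threshold 535 and 228. At 24 weeks 2 passed, and 11 did as deposited, 0 with the level as a block, 1 with the 8 arrays alone, 4 with array weights (the added ones being Slc25a20 and Slc25a35), 1 over all probe sets, 0 with either fold rule, 0 with the methods' test and 1 with its threshold (Slc25a25, higher). Over all genes 87 rose and 42 fell at 24 weeks, 81 and 1594 as deposited, and 2 and 0 with the level block. The 8 arrays alone gave 89 and 39, array weights 525 and 304, and all probe sets 73 and 44. The fold rules gave 76 and 27 with the adjusted p and 315 and 111 with the unadjusted p. The methods' test gave 0 and 0, and its threshold 270 and 94. Array weights gave 1 at 8 weeks (Slc25a42, lower), the arrays of the higher level alone gave 3 for 16 against 8 weeks, and a fold above 1.5 with an unadjusted p gave 1 each for 24 against 16 and 24 against 8 weeks. With array weights 135 of all genes were higher and 51 lower at 8 weeks. The higher level gave 162 and 74 for 16 against 8 weeks. The fold rule gave 58 and 139 for 24 against 16 weeks, and 49 and 24 for 24 against 8 weeks. The 24-week comparison could not be made within the higher level, which holds no 24-week array. Leaving out 1 array at a time gave 4 to 9 members at 16 weeks and 0 to 3 at 24 weeks. The count at 16 weeks was 5 without control replicate 1 or 2, 4 without control replicate 3 and 5 without 16-week replicate 2. Those fits gave 450, 572, 507 and 544 of all genes higher and 196, 246, 258 and 311 lower, in that order. The count of 9, without 16-week replicate 4, stood beside 938 of all genes higher and 632 lower. At 24 weeks the count was 0 without control replicate 1, 2 or 3 or 24-week replicate 1, 2 or 3, and 1 without control replicate 4. Of all genes, 3, 4, 14 and 89 were higher and 2, 2, 9 and 49 lower without control replicates 1 to 4 in turn. Without 24-week replicate 1, 2 or 3, 49, 17 and 16 were higher and 29, 7 and 8 lower. The count of 3, without 24-week replicate 4, stood beside 378 of all genes higher and 180 lower. The causes were not tested. Deviations of same-numbered arrays correlated from -0.32 to 0.24 over 24 pairs, so the numbers were not taken as pairs. With the replicate block, 9 members passed at 16 weeks (3 higher, 6 lower) and 2 at 24 weeks. Over all genes that block gave 846 higher and 442 lower at 16 weeks, and 71 and 38 at 24 weeks.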
